A study of Homo sapiens with 12 samples.

Results

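The 45 genes described here are the hypoxia and glycolysis genes of human U-87MG glioblastoma cells, chosen by gene symbol: 4 genes of glucose entry, 15 enzymes of glycolysis, 5 regulators of glycolytic flux, 2 carbonic anhydrases, 4 genes of hypoxia-inducible factor (HIF) subunits and prolyl hydroxylases, and 15 other HIF targets. A gene was taken from the array feature that carried its symbol and no other, and 43 of the 45 had one, among 13530 such genes. Of these, 42 were bright enough to be tested, among 10807 genes. ANGPTL4, a secreted lipase inhibitor, was below the brightness filter, and PGAM1 and EGLN3 are not analysed here. The study measured RNA on 12 arrays from cells that all carried a control shRNA (shCtrl) and were grown in high glucose medium. They had received for 24 h the solvent DMSO, 100 nM FICZ (a tryptophan photoproduct and strong ligand of the aryl hydrocarbon receptor, AHR) or 50 µM kynurenic acid (KynA, a tryptophan metabolite), with 4 arrays per group. The replicates are called biological in the labels, but the labels do not say whether they were separate cultures, so the p-values below cover only the variation among these 12 samples, part of which may be technical. No label names the oxygen level of the cultures.

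HIF is a transcription factor made of an oxygen-regulated alpha subunit, such as HIF-1alpha (HIF1A) or HIF-2alpha (EPAS1), and ARNT, the same partner protein that the ligand-bound AHR uses. With oxygen present, prolyl hydroxylases such as EGLN1 mark the alpha subunit for destruction, so HIF activity is set mainly through its protein and not its RNA. HIF targets include the glucose transporters, most enzymes that turn glucose into lactate, pH regulators and genes of collagen processing, autophagy and growth control, and glioblastomas are known for high glycolysis and for hypoxic regions in which these genes are active.

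With FICZ, SLC2A1 and HK2 rose, each by about the same amount, and no other gene among the 42 passed in the main fit. Under other fits, given in the closing section, NDRG1, DDIT4 or BHLHE40 passed too. SLC2A1 encodes GLUT1, the widely expressed glucose transporter, and HK2 encodes hexokinase 2, which phosphorylates glucose as it enters the cell. HK2 was 1.46-fold and SLC2A1 1.42-fold the DMSO level. HK2 is itself a glycolytic enzyme, but both hexokinases are counted here under glucose entry. The 14 tested enzymes of the later steps of glycolysis had a median log2 difference of -0.03 and none passed. With KynA none of the 42 genes passed. Among the 14 tested genes of the group of other HIF targets, 12 had a higher mean with FICZ than with DMSO and none passed in the main fit.

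Before the values, the promoters of 5 genes are shown: those of the 2 genes that rose, that of BHLHE40, the HIF target with the smallest p among those that did not pass, and those of LDHA and CA9, typical HIF targets whose levels did not pass. Each is the 250 bases before the annotated start in RefSeq (GRCh38.p14), read along the gene's own strand. Capitals mark ACGTG, here called the HIF core, and GCGTG, here called the AHR core, on either strand. CACGT is ACGTG read on the other strand, and the palindrome CACGTG is a match on both. The names label the letters searched and do not tell which factor can use a site.
HK2, chr2:74833877-74834126 (+ strand): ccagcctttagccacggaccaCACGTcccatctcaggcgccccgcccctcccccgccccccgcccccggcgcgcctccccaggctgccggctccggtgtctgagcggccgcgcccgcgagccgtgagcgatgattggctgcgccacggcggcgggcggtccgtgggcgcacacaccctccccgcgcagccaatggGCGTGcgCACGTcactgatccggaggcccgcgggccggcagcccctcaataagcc
SLC2A1, chr1:42958869-42959118 (- strand): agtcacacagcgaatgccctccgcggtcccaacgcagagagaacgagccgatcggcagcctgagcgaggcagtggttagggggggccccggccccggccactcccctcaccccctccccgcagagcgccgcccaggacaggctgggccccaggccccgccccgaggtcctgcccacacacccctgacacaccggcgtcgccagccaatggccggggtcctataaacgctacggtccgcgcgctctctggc
BHLHE40, chr3:4979187-4979436 (+ strand): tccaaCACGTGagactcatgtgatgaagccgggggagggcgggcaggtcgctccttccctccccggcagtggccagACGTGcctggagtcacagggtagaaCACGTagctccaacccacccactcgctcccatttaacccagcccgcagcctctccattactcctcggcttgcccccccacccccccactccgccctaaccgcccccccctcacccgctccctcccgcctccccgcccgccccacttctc
LDHA, chr11:18394313-18394562 (+ strand): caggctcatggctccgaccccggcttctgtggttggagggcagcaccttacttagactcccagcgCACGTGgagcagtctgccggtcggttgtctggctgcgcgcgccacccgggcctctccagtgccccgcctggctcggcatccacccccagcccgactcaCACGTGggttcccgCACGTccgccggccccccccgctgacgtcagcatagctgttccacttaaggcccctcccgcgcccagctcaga
CA9, chr9:35673678-35673927 (+ strand): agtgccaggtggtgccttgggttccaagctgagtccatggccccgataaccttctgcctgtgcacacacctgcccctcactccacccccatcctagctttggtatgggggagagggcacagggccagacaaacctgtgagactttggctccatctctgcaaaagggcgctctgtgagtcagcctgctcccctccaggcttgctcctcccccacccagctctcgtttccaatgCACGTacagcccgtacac
In HK2 an AHR core began 55 bases before the start, beside a HIF core at 48 bases, and a further HIF core lay at 229 bases. The SLC2A1 window held neither core. BHLHE40 held 4 matches to the HIF core, LDHA 5 and CA9 1, at 18 bases, counted over both strands, and none of these 3 held the AHR core.

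Across the list, 41 of the 45 genes had a promoter in the RefSeq table. The HIF core was in 20 of them (48.8%), against 23.5% of the 8181 promoters of tested genes and 18.7% of all 27305 promoters of that length. The AHR core was in 18 of the 41 (43.9%), against 44.9% and 31.9%. The longer AHR motif TNGCGTG was in 1 (2.44%), that of the enolase gene ENO1, against 5.99% and 4.53%. The HIF core was most frequent among the other HIF targets, in 9 of 13, and was in 7 of the 15 glycolytic enzymes. These matches describe the letters of the windows only. Many of the genes became known as HIF targets partly through such motifs, so their share is no independent finding.

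The arrays resembled each other, with medians from 8.30 to 8.33 on the log2 scale and correlations between arrays from 0.940 to 0.977. FICZ 4 stood apart, scoring 24.2 on the first principal component, against 13.6 for FICZ 2, the next, and having the lowest array weight (0.551). All 8 markers of mesenchymal glioma lines passed the brightness filter, with mean signals per array from 11.19 to 11.45. Their signals included 12.87 to 13.20 for VIM and 7.90 to 8.34 for NES. Of 24 markers of neurons, myeloid, endothelial, epithelial cells and oligodendrocytes, 15 were in the table and 10 passed the filter, and the 15 had a mean from 7.86 to 8.10. Among these the epithelial keratin KRT5 read 9.72 to 10.50 and the neuronal SNAP25 8.93 to 9.41. Signals of different probes are not comparable as levels, so no order is read from them. Of 6 AHR feedback genes, 3 rose with FICZ, where 0.601% of all genes did. On the log2 scale TIPARP rose by 1.21, the monooxygenase gene CYP1B1 by 1.07 and the AHR repressor gene AHRR by 0.97. Their limma adjusted p was 0.000659, 0.00629 and 0.00565. The FICZ differences of NQO1 (0.09), ALDH3A1 (-0.11) and AHR itself (-0.10) did not pass. With KynA the differences were 0.61 for TIPARP, 0.71 for CYP1B1 and 0.54 for AHRR (limma adjusted p = 0.469, 0.494 and 0.854). Those of NQO1, ALDH3A1 and AHR were -0.01, 0.03 and 0.01, and none of the 6 passed. For TIPARP and CYP1B1 all KynA arrays lay above all DMSO arrays, as for 1.13% of all genes.

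Glucose entry was represented by the transporters SLC2A1 and SLC2A3 and the hexokinases HK1 and HK2. The log2 signal of HK2 was 9.10, 9.29, 9.53 and 9.22 in DMSO 1 to 4, 9.86, 9.60, 9.87 and 10.00 in FICZ 1 to 4, and 9.60, 9.53, 9.62 and 9.56 in KynA 1 to 4. All FICZ arrays lay above all DMSO arrays, and the KynA arrays formed a narrow band that touched the top of the DMSO range and the bottom of the FICZ range. HK2 rose with FICZ by 0.55 ± 0.10 (SE, n = 4; 95% interval 0.33 to 0.77; limma adjusted p = 0.0242). The log2 signal of SLC2A1 was 9.43, 9.67, 9.45 and 9.41 with DMSO, 9.85, 10.05, 10.09 and 10.00 with FICZ, and 9.62, 9.96, 9.55 and 9.61 with KynA. All FICZ arrays lay above all DMSO arrays, and replicate 2 was the highest array of both the DMSO and the KynA group. SLC2A1 rose with FICZ by 0.51 ± 0.10 (SE, n = 4; 0.29 to 0.73; limma adjusted p = 0.0336). Arrays were made from bulk RNA, so more RNA per cell and more cells with the RNA cannot be told apart.

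Over all genes, 92 of 10807 (0.851%) passed in FICZ against DMSO, 65 of them higher (0.601%), beside 2 of the 42 hypoxia and glycolysis genes, both higher. Both calls lay near the threshold. Of the 12 fits that left out an array, HK2 passed in 7 and SLC2A1 in 6. HK2 no longer passed without DMSO 1, DMSO 2, DMSO 4, FICZ 1 or FICZ 4 (adjusted p = 0.0730, 0.0534, 0.0806, 0.0561 and 0.0817 by limma), or with only the 8 arrays of these groups (0.0762). SLC2A1 no longer passed without DMSO 1, DMSO 3, DMSO 4, FICZ 2, FICZ 3 or FICZ 4 (0.0868, 0.102, 0.114, 0.0974, 0.0660 and 0.0938), or with no brightness filter (0.0536). The size of the rise moved less, from 0.49 to 0.63 for HK2 and from 0.48 to 0.57 for SLC2A1 over the 12 fits that left out an array.

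The paralogues of both genes had smaller differences. HK1, the housekeeping hexokinase, had mean log2 signals of 11.64 ± 0.09 with DMSO, 11.62 ± 0.06 with FICZ and 11.65 ± 0.05 with KynA (SD, n = 4). Its difference between FICZ and DMSO was -0.01, with an interval of -0.17 to 0.14 that lies wholly below that of HK2. SLC2A3 encodes GLUT3, a high-affinity transporter known from neurons and from glioma cells. Its signal was 7.96, 8.18, 8.02 and 8.15 with DMSO, 8.32, 8.14, 8.30 and 7.98 with FICZ, and 8.10, 8.22, 7.43 and 7.71 with KynA, and the 3 groups overlapped. The FICZ difference of SLC2A3 was 0.11 (-0.21 to 0.42; limma adjusted p = 0.777), and KynA 3 was its lowest array. This interval overlaps that of SLC2A1 (0.29 to 0.73), so the intervals do not set these transporters apart.

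**Figure D1:**
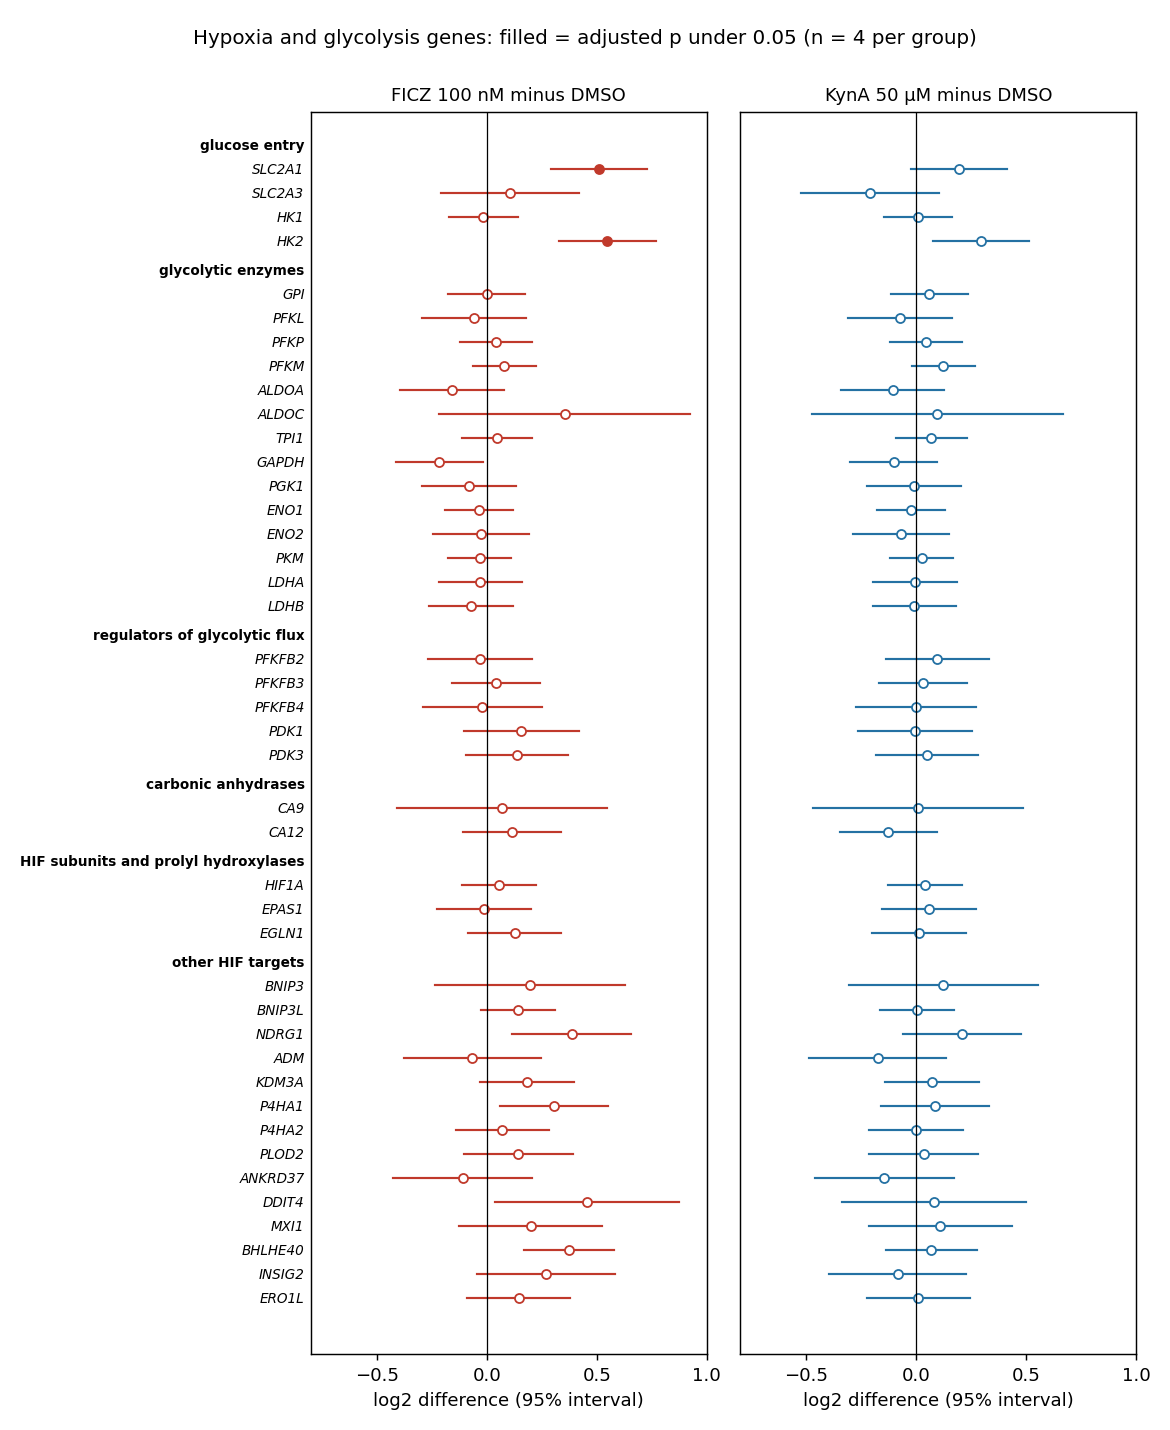
Log2 difference from DMSO with its 95% interval for each of the 42 tested genes, FICZ on the left and KynA on the right, grouped by role; filled points passed at an adjusted p under 0.05. Only HK2 (0.55) and SLC2A1 (0.51) with FICZ are filled, and the glycolytic enzymes lie around 0 in both panels.

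The enzymes of glycolysis after the hexokinases, which carry glucose phosphate to pyruvate and lactate, did not pass in any comparison. Of the 14 tested, 4 had a higher and 10 a lower mean with FICZ than with DMSO, and the split was 9 higher when arrays were scaled by cyclic loess. Their differences ran from -0.22 for GAPDH to 0.36 for ALDOC, with a median of -0.03, equal to the median of -0.03 over all genes tested, and 0.01 without FICZ 4. The enzymes with a higher mean were ALDOC, PFKM (0.08), TPI1 (0.05) and PFKP (0.04). For 3 enzymes the difference was -0.03: LDHA, the lactate dehydrogenase subunit (interval -0.22 to 0.16), PKM, pyruvate kinase (-0.18 to 0.11), and ENO1, enolase (-0.19 to 0.12). PGK1, phosphoglycerate kinase, had a difference of -0.08 (-0.29 to 0.13). For LDHA, PKM, ENO1 and PGK1 the whole interval lies below those of HK2 and SLC2A1. Their mean DMSO signals were 12.84, 13.37, 13.18 and 11.74, against 9.28 for HK2 and 9.49 for SLC2A1. The highest signal of the series was 13.82. Whether such bright features show differences to the same extent was not tested.

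GAPDH, the glyceraldehyde phosphate dehydrogenase often used as a reference gene, was the only one of the 42 lower with FICZ at an unadjusted p under 0.05, as 8.65% of all genes were. Its log2 signal was 12.94, 13.00, 12.86 and 12.98 with DMSO, 12.88, 12.70, 12.71 and 12.64 with FICZ, and 12.87, 12.98, 12.60 and 12.92 with KynA. FICZ 1 overlapped the DMSO range and the other FICZ arrays lay below it. The difference was -0.22 ± 0.09 (SE, n = 4; limma adjusted p = 0.299), which did not pass. ALDOC, an aldolase isoform of brain, had the widest spread, from 8.15 to 9.09 with FICZ and from 7.60 to 8.84 with KynA, and its interval of -0.22 to 0.93 shows little about its level.

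The regulators of glycolytic flux comprise PFKFB2, PFKFB3 and PFKFB4, which set the level of the activator of phosphofructokinase, and PDK1 and PDK3, kinases that switch off pyruvate dehydrogenase. None of the 5 passed, with FICZ differences from -0.03 (PFKFB2) to 0.16 (PDK1) and a median of 0.04, which was -0.03 without FICZ 4. PDK1 was higher with FICZ in each of the 4 equal-numbered pairs of arrays, with means of 9.81 ± 0.10 against 9.65 ± 0.16 (SD, n = 4) and a limma adjusted p of 0.580. The carbonic anhydrases CA9 and CA12 are membrane enzymes that handle the acid made by glycolysis. CA9, a widely used marker of hypoxia, had a FICZ difference of 0.07, with an interval of -0.41 to 0.55.

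CA12 read 9.98, 10.12, 10.22 and 10.29 with DMSO, 10.45, 10.18, 10.35 and 10.10 with FICZ, and 10.18, 10.03, 9.83 and 10.06 with KynA. All groups overlapped, and its FICZ difference of 0.12 did not pass (limma adjusted p = 0.635).

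The HIF subunit RNAs were close to their DMSO levels. HIF1A had log2 signals of 12.21, 12.08, 12.03 and 11.99 with DMSO, 12.21, 12.11, 12.19 and 12.02 with FICZ, and 12.15, 12.18, 12.06 and 12.07 with KynA. The 3 ranges covered each other, and the FICZ difference was 0.05 (-0.11 to 0.22; limma adjusted p = 0.787). EPAS1 had 10.90, 10.61, 10.74 and 10.72 with DMSO, 10.57, 10.94, 10.83 and 10.59 with FICZ, and 10.86, 10.74, 10.90 and 10.70 with KynA. Its ranges also overlapped, with a FICZ difference of -0.01 (-0.22 to 0.20; limma adjusted p = 0.974) whose sign turned under cyclic loess (0.04). EGLN1, the main oxygen-sensing prolyl hydroxylase and itself a HIF target, had a difference of 0.13 (-0.08 to 0.34). None of 7 other tested genes of the HIF pathway passed with either ligand. Among them, ARNT had a FICZ difference of 0.14 ± 0.09 (SE, n = 4; limma adjusted p = 0.508) and VHL, which recognises hydroxylated HIF, one of 0.19 ± 0.08 (0.309).

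The other HIF targets lay mostly above DMSO with FICZ. Their median difference was 0.19, against -0.03 over all genes tested, and 12 of 14 had a positive difference, where 41.4% of all genes did. At an unadjusted p under 0.05, 4 of the 14 were higher (5.89% of all genes tested were): BHLHE40, NDRG1, P4HA1 and DDIT4. For BHLHE40 and NDRG1 no FICZ array overlapped the DMSO range, as was so, in that direction, for 2.94% of all genes. None of the 42 genes lay wholly below DMSO, as 4.91% of all genes did. None of the 14 passed after adjustment over all genes in the main fit of group means. NDRG1 and DDIT4 passed with the replicate number as a fixed block, and BHLHE40 with trended, robust variances, as given in the closing section. Without FICZ 2 their median difference was 0.12, and without FICZ 4 it was 0.28.

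BHLHE40, a transcriptional repressor of the clock and of differentiation, read 10.58, 10.86, 10.56 and 10.67 with DMSO, 10.90, 11.08, 11.07 and 11.12 with FICZ, and 10.71, 10.94, 10.69 and 10.61 with KynA. The FICZ arrays were the highest apart from KynA 2, which lay above FICZ 1. The FICZ difference of BHLHE40 was 0.37 ± 0.10 (SE, n = 4; limma adjusted p = 0.0914). NDRG1, a stress-responsive gene of cell differentiation, read 11.31, 11.46, 11.12 and 11.02 with DMSO, 11.64, 11.87, 11.49 and 11.46 with FICZ, and 11.43, 11.72, 11.35 and 11.25 with KynA. FICZ 4 lay just above DMSO 2, the highest DMSO array. The FICZ difference of NDRG1 was 0.39 ± 0.13 (SE, n = 4; limma adjusted p = 0.178).

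P4HA1 encodes a subunit of the collagen prolyl hydroxylase. Its signal was 9.25, 9.27, 9.43 and 9.13 with DMSO, 9.63, 9.82, 9.45 and 9.40 with FICZ, and 9.36, 9.60, 9.31 and 9.15 with KynA, and FICZ 4 lay below DMSO 3. The FICZ difference of P4HA1 was 0.30 ± 0.11 (SE, n = 4; limma adjusted p = 0.241). DDIT4, also called REDD1, restrains mTOR signalling. It read 8.86, 9.41, 8.76 and 8.81 with DMSO, 9.39, 9.88, 9.11 and 9.28 with FICZ, and 9.05, 9.51, 8.93 and 8.68 with KynA. DMSO 2 lay inside the FICZ range, well above the other DMSO arrays, and the FICZ difference was 0.46 ± 0.20 (SE, n = 4; limma adjusted p = 0.304).

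INSIG2, which holds back sterol synthesis, read 8.18, 8.71, 8.40 and 8.46 with DMSO, 8.48, 8.95, 8.79 and 8.60 with FICZ, and 8.09, 8.68, 8.17 and 8.47 with KynA. Replicate 2 was the highest array of each group, and the groups overlapped, with a FICZ difference of 0.27 ± 0.15 (SE, n = 4; limma adjusted p = 0.415). The lowest difference in the group was -0.11, for ANKRD37. ADM, the vasodilator peptide adrenomedullin, was the other gene below 0, at -0.07. ANGPTL4, which was not tested, had means of 7.41 with DMSO, 7.64 with FICZ and 7.44 with KynA.

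**Figure D2:**
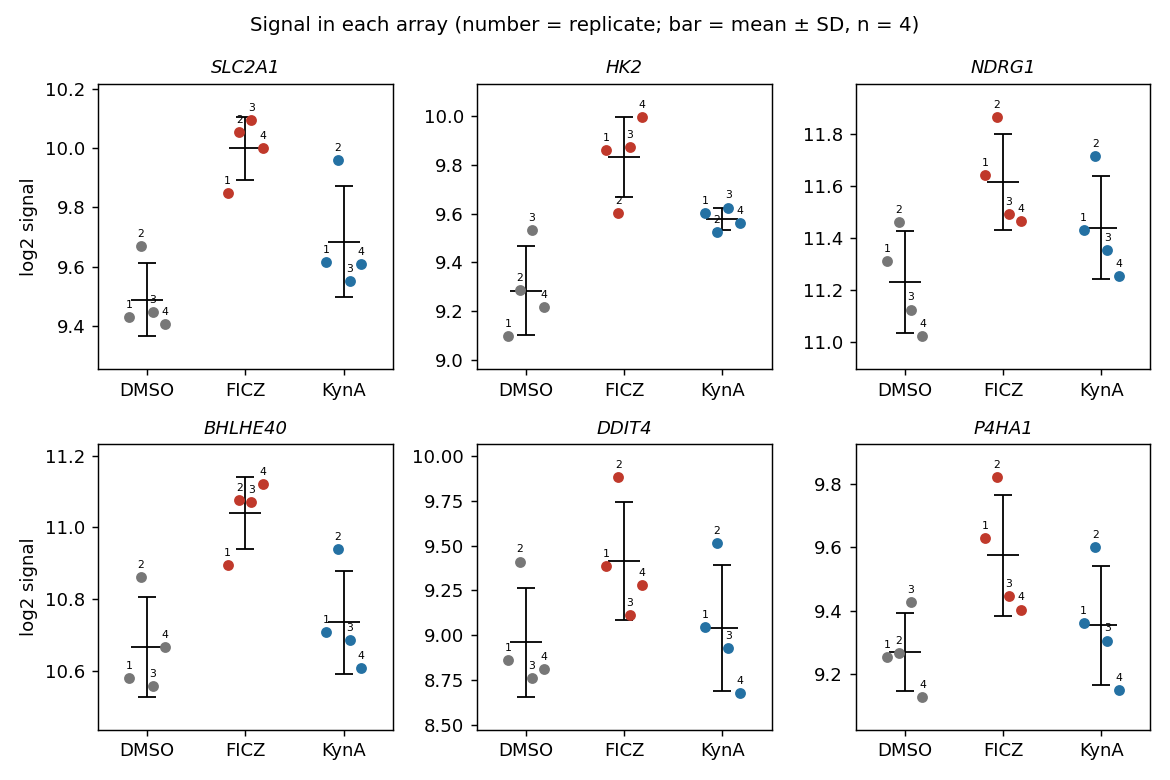
Log2 signal of SLC2A1, HK2, NDRG1, BHLHE40, DDIT4 and P4HA1 in each array, with the replicate number beside each point and the mean and SD (n = 4) as bars. In the panels of SLC2A1, HK2, NDRG1 and BHLHE40 every FICZ array lies above every DMSO array, and replicate 2 is high in each group for DDIT4 and NDRG1.

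Arrays with equal replicate numbers were also set against each other. The FICZ array was above the DMSO array of the same number in 4 of 4 pairs for 14 of the 42 genes and below it in 4 of 4 for 2, GAPDH and PGK1. Over all genes tested these shares were 9.59% and 15.4%. The 14 were SLC2A1, HK2, ALDOC, TPI1, PDK1, EGLN1, HIF1A and, of the other HIF targets, BHLHE40, BNIP3, DDIT4, INSIG2, KDM3A, NDRG1 and P4HA1. The 4 differences were alike for NDRG1, from 0.33 to 0.44, and for DDIT4, from 0.35 to 0.53. They ranged more widely for HK2, from 0.31 to 0.78, and for P4HA1, from 0.02 to 0.55.

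In some hypoxia genes the same replicate number was the lowest or the highest in every group. Of those named here, CA9 and BNIP3 were picked after their values were seen. CA9 read 9.43, 9.47, 9.27 and 8.59 in DMSO 1 to 4, 9.59, 9.47, 9.25 and 8.74 in FICZ 1 to 4, and 9.51, 9.50, 8.95 and 8.84 in KynA 1 to 4, so that array 4 was the lowest of each group. BNIP3, a mitophagy receptor, read 10.92, 11.19, 10.61 and 10.31 with DMSO, 11.17, 11.28, 10.87 and 10.50 with FICZ, and 11.16, 11.09, 10.70 and 10.58 with KynA, again lowest in array 4 of each group. DDIT4 and NDRG1 were highest in array 2 of each group. The labels do not say what arrays of equal number shared. A test of the number beside the treatments, given in the closing section, called no gene. For CA9, BNIP3 and DDIT4 the limma adjusted p was 0.0628. At an unadjusted p under 0.05 were 10 of the 42 genes, and 9.92% of all genes tested.

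**Figure D3:**
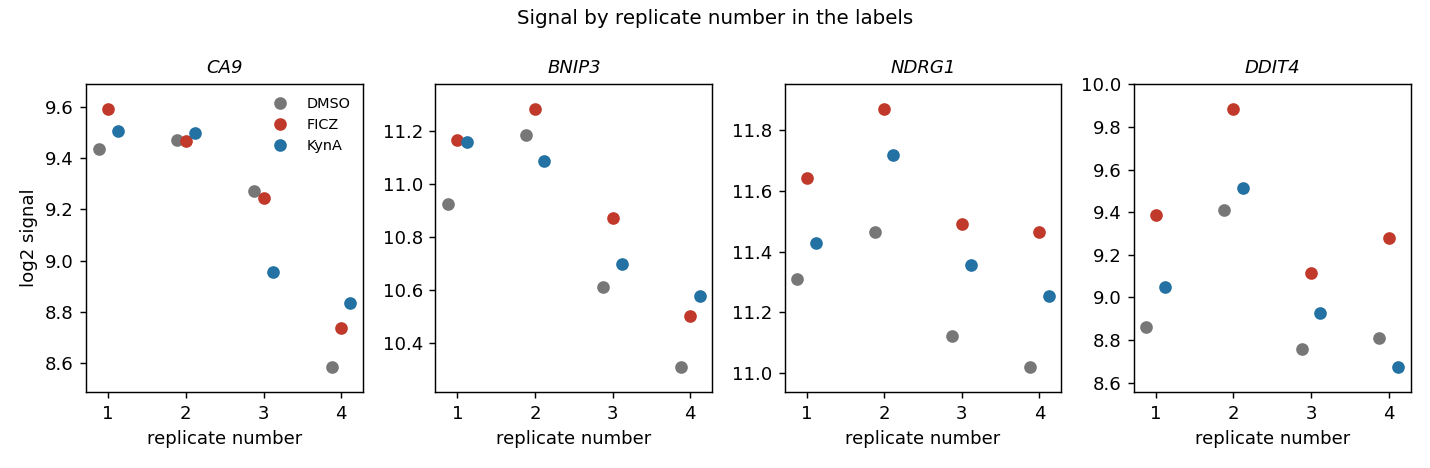
Log2 signal of CA9, BNIP3, NDRG1 and DDIT4 against the replicate number in the labels, with 1 point for each array and colour for the treatment. CA9 and BNIP3 are lowest at number 4 in all 3 groups, and NDRG1 and DDIT4 are highest at number 2.

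With KynA, 1 of 10807 genes (0.00925%) passed against DMSO, and none of the 42, for which the limma adjusted p was 1.00 throughout. HK2 was the only one of the 42 at an unadjusted p under 0.05 (1.87% of all genes were higher and 1.52% lower by this measure), with a difference of 0.29 ± 0.10 (SE, n = 4; 0.07 to 0.51). SLC2A1 had a difference of 0.20 (-0.02 to 0.41) and SLC2A3 one of -0.21 (-0.52 to 0.10). The phosphofructokinase gene PFKM was the only one of the 42 whose KynA arrays all lay above the DMSO arrays (1.13% of all genes did, and 1.28% lay wholly below), by 0.12 (-0.02 to 0.27). HK2, SLC2A1, PFKM and NDRG1 were above the DMSO array of the same number in 4 of 4 pairs, and GAPDH was below it. Over all genes these shares were 6.14% and 6.56%. The median difference was 0.02 over the 42 genes, -0.01 over the glycolytic enzymes and 0.05 over the other HIF targets, against -0.01 over all genes.

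FICZ and KynA were given at unequal doses, and both are set against the same DMSO arrays, so their differences from DMSO are not independent. In the direct comparison 1 of 10807 genes (0.00925%) passed and none of the 42. At an unadjusted p under 0.05, 6 of the 42 were higher with FICZ, where 3.12% of all genes were, and none was lower, where 5.22% were. These were BHLHE40 by 0.31 (0.10 to 0.51; limma adjusted p = 0.419), SLC2A1 by 0.31 (0.10 to 0.53; 0.443), HK2 by 0.25 (0.03 to 0.47; 0.536), INSIG2 by 0.35 (0.04 to 0.67; 0.544), CA12 by 0.24 (0.02 to 0.47; 0.571) and SLC2A3 by 0.32 (0.003 to 0.63; 0.596). For SLC2A3, KynA 3 and KynA 4 lay below the brightness cut-off of their arrays. For each of the 42 the FICZ and KynA arrays overlapped, while 1.4% of all genes lay wholly higher and 2.79% wholly lower with FICZ. In equal-numbered pairs, 10 of the 42 were higher with FICZ in 4 of 4 (6.5% of all genes) and 1, PKM, was lower (10.9%). All 14 tested genes of the group of other HIF targets had a higher mean with FICZ than with KynA, where 42.7% of all genes did. The differences ran from 0.04 (ANKRD37) to 0.37 (DDIT4). The 14 were also higher with arrays centred on their median or scaled by cyclic loess. They were read on the same arrays, and their averages per array, given below, overlapped between the ligands.

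**Figure D4:**
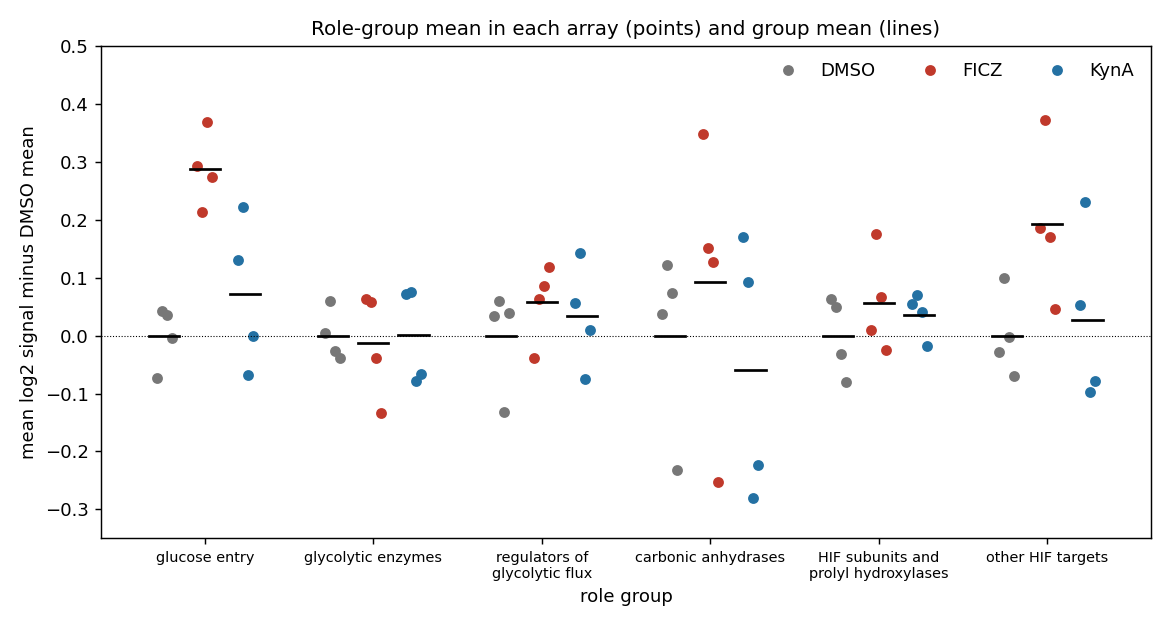
Mean log2 signal of each role group in each array, given relative to that group's DMSO mean, with the treatment means as lines. For glucose entry the 4 FICZ arrays lie from 0.21 to 0.37, above the DMSO arrays (-0.07 to 0.04), an average in which HK2 and SLC2A1 alone passed, while for the glycolytic enzymes the treatments overlap around 0.

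Averaged per array, the glucose entry genes lay from 0.21 to 0.37 above their DMSO mean with FICZ, from -0.07 to 0.04 with DMSO and from -0.07 to 0.22 with KynA. Only KynA 2 reached the FICZ range. This average of 4 genes combines FICZ differences of 0.55 for HK2 and 0.51 for SLC2A1 with 0.11 for SLC2A3 and -0.01 for HK1, of which only the first pair passed. The other HIF targets lay from 0.05 to 0.37 with FICZ and from -0.07 to 0.10 with DMSO, so that FICZ 4 overlapped the DMSO arrays. With KynA these genes lay from -0.10 to 0.23, and KynA 2 was above FICZ 1, FICZ 3 and FICZ 4. The glycolytic enzymes ranged from -0.13 (FICZ 4) to 0.06 with FICZ and from -0.04 to 0.06 with DMSO.

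Genes of neighbouring pathways were looked at in the same way. Of 22 other tested hypoxia-responsive genes, 2 rose with FICZ and none fell, where 0.601% of all genes rose and 0.25% fell. VEGFA, the angiogenic growth factor, read 10.35, 10.39, 10.37 and 10.23 with DMSO, 10.87, 11.01, 10.82 and 10.71 with FICZ, and 10.65, 10.59, 10.53 and 10.53 with KynA. The 3 groups did not overlap, with KynA between the others, and VEGFA rose with FICZ by 0.52 ± 0.08 (SE, n = 4; limma adjusted p = 0.00626). Its KynA difference of 0.24 did not pass. STC2, a secreted glycoprotein of stress responses, rose with FICZ by 1.05 ± 0.14 (limma adjusted p = 0.00179) and had a KynA difference of 0.76 (0.284).

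None of 12 tested enzymes of the pentose phosphate pathway and of glycogen metabolism passed, and their median FICZ difference was -0.08. H6PD, the hexose phosphate dehydrogenase of the endoplasmic reticulum, had the smallest p among them, with a difference of -0.21 ± 0.09 (SE, n = 4; limma adjusted p = 0.283). None of 13 tested genes of pyruvate dehydrogenase and mitochondrial pyruvate entry passed, with a median of -0.06. Their extremes were PDP1, the phosphatase that reactivates pyruvate dehydrogenase, at 0.35 ± 0.10 (SE, n = 4; adjusted p = 0.132), and CS, citrate synthase, at -0.30 ± 0.09 (0.153).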

How the data were processed

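Log2 signals of 12 whole-transcript arrays (1 colour, biotin) were deposited by the authors, who used oligo and RMA, per the submitters' processing notes, with versions not given in the sources used here. It had 15759 features, 13577 with 1 symbol in the platform annotation, which can be old (ERO1L is now ERO1A). For genes with several features the one with the highest mean was kept. Genes above the 25th percentile of their array in at least 4 arrays were tested, leaving 10807 of 13530. All sample columns were used, in groups from the labels. R 4.3.3 with limma 3.58.1 fitted group means over all 12 arrays (9 residual degrees of freedom), with two-sided moderated tests and Benjamini-Hochberg adjustment over all genes tested; passing meant an adjusted p under 0.05. The number of arrays limits the precision; the median SE was 0.11.

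The 45 genes and all lists were chosen with earlier results of these data known. Values in every array are given for members with an unadjusted p under 0.05 in any comparison (at most the 12 with the smallest p), and for HIF1A and EPAS1; others appear by role with up to 3 examples. Members named beyond this, such as CA9, BNIP3 and PGK1, were picked after their values were seen. Of neighbouring lists, genes that passed and the smallest p are named. Data were simulated for FICZ against DMSO (10807 genes) with independent normal noise and no array or replicate-number effects, so the counts need not hold for the real arrays. On them the fit called 59 of 100 genes shifted by 0.5 log2 units, 100 of 100 shifted by 1, and 9 unshifted genes. Alternatives were median centring, cyclic loess, other filters, the mean of features, another variance model, array weights, only 2 groups, the replicate number as a block and each array left out. Motifs were counted and plots drawn with Python 3.11.15, pandas 2.3.3 and matplotlib 3.10.9.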

Additional observations from a re-analysis of the deposited data

Results flagged for a closer look

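Among 129 sets of 4 arrays (43 genes in 3 groups), 7 held an array far from the other 3. Chance gives about 1 in 20, so this count is near what chance alone would give. The 7 are listed for reference only. In SLC2A1, DMSO 2 read 9.67, above the other DMSO arrays (9.41 to 9.45), and KynA 2 read 9.96, above the other KynA arrays (9.55 to 9.62). In DDIT4, DMSO 2 read 9.41, with the others from 8.76 to 8.86. In KDM3A, a histone demethylase, DMSO 3 read 8.75, with the others at 8.57. In ERO1L, an oxidase of the endoplasmic reticulum, DMSO 1 read 10.74, with the others from 10.52 to 10.55. In the triosephosphate isomerase gene TPI1, KynA 4 read 10.25, with the others from 10.13 to 10.14. In PFKFB4, FICZ 1 was the low array at 8.20, with the others from 8.64 to 8.71.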

How the results depend on the processing

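Of the 42 genes, 2 passed in FICZ against DMSO. With no filter 1 passed (HK2), with only the 2 groups compared 1 (SLC2A1), and between 0 and 2 when an array was left out. With the replicate number as a fixed block 4 passed, HK2 and SLC2A1 joined by NDRG1 (adjusted p = 0.0247) and DDIT4 (0.0292), and as a random block 2. The samples share only a number here: deviations of equal-numbered arrays correlated from 0.0200 to 0.213 for FICZ and DMSO and down to -0.133 for FICZ and KynA, and 3 of 4 FICZ arrays correlated best with their own number. With trended, robust variances BHLHE40 also passed. None of the 42 passed in the other comparisons under any of these settings.

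Over all genes, FICZ against DMSO gave 140 calls with trended, robust variances, 43 with only the 2 groups and from 34 (without FICZ 2 or FICZ 4) to 95 without an array. KynA against DMSO gave 2 with trended, robust variances, 6 with the fixed replicate block and from 1 to 2 without an array. FICZ against KynA gave 2 with no filter, 6 with the fixed replicate block and from 1 to 3 without an array. The causes were not tested. Differences near 0 turned sign: EPAS1 with FICZ under cyclic loess (0.0370) and without an array (-0.0797 to 0.0440), DDIT4 (-0.0768 to 0.23) and INSIG2 (-0.19 to 0.0068) with KynA, and HIF1A between the ligands (-0.0119 to 0.0533).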

Other observations

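After the data were seen, the replicate number was tested beside the groups with limma's moderated F test over all 10807 genes. No gene passed at an adjusted p under 0.05, and 1072 (9.92%) had an unadjusted p under 0.05, among them 10 of the 42 hypoxia and glycolysis genes. By F, BNIP3 ranked 5, CA9 7 and DDIT4 10 of all genes tested, each with an adjusted p of 0.0628 by limma. NDRG1 ranked 28 and INSIG2 65. By role, 6 of 14 other HIF targets, 1 of 14 glycolytic enzymes and none of the 4 glucose entry genes had an unadjusted p under 0.05. The same held for 7 of the 22 other hypoxia-responsive genes. The labels do not say what the numbers stand for.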
